A study of Mus musculus with 3 samples.

Results

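Plasmacytoid dendritic cells (pDCs) were 61 of the 7057 cells recovered from mouse meninges by droplet single-cell RNA sequencing. A cell was taken as a pDC when 6 genes of this lineage, Siglech, Cox6a2, Ccr9, Klk1, Cd209d and Smim5, together made up at least 0.2% of its unique molecular identifiers (UMIs, each marking 1 captured transcript), when at least 3 of the 6 were detected, and when the microglial genes P2ry12 and Tmem119 stayed under 0.05%. Every cell counted here had at least 500 UMIs, under 8.3% mitochondrial UMIs and a number of detected genes within the limits the study set. The measured levels of these 8 genes chose the cells, so they are given as a description, with no test.

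The meninges came from male C57BL/6J mice aged 10 to 12 weeks. Home cage (HC) mice were left unstressed, and chronic social defeat (CSD) mice met an aggressor over 14 days and were picked for a stress-susceptible phenotype, by urine scent marking and the open field per the labels. The study's description of these mice also names the social interaction test. Each library pooled the meninges of 4 mice, with 2 HC libraries (HC replicates 1 and 2) and 1 CSD library (CSD replicate 1), and after a sort for live nucleated cells (DAPI- DRAQ5+) the libraries were made in separate lanes of 1 Chromium chip. With 1 CSD library, the stress and that pool cannot be told apart, and every p-value below measures only the spread between these pools.

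pDCs are dendritic cells with a rounded, plasma cell-like shape that are best known for releasing large amounts of type I interferon when the endosomal receptors TLR7 and TLR9 meet viral or self nucleic acid. They arise in bone marrow under the transcription factors TCF4 (E2-2), IRF8, SPIB and RUNX2, with TCF4 held in check by ID2, the factor that favours conventional dendritic cells (cDCs). They take up and present antigen less readily than cDCs at rest, and in mice they are recognised by Siglec-H, BST2 and B220.

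Cd300c and Klk1b27, genes outside the rule whose RNA was counted in the pDCs and in no cDC, were picked for display after their values were seen. Their promoters are shown beside that of Siglech, a gene of the rule, because TCF4 binds the E-box, whose letters are CANNTG (a palindrome, so both strands read alike). Each run holds 250 bases before and 50 after the annotated start, written 5′ to 3′ on the gene's strand of GRCm38.p6 from RefSeq, with every CANNTG in capitals. The windows are chr7:55767934-55768233 on the plus strand for Siglech, chr11:114960458-114960757 on the minus strand for Cd300c and chr7:44052040-44052339 on the plus strand for Klk1b27.
Siglech: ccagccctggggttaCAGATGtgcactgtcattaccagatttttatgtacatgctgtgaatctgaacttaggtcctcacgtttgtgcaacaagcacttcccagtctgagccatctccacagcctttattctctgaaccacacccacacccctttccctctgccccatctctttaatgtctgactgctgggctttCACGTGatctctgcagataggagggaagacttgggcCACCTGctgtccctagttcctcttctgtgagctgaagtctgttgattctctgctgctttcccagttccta
Cd300c: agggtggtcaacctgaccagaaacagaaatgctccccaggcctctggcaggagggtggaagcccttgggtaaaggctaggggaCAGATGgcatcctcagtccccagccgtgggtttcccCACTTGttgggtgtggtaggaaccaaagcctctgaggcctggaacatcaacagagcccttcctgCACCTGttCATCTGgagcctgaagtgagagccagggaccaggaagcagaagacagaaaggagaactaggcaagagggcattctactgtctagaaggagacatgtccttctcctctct
Klk1b27: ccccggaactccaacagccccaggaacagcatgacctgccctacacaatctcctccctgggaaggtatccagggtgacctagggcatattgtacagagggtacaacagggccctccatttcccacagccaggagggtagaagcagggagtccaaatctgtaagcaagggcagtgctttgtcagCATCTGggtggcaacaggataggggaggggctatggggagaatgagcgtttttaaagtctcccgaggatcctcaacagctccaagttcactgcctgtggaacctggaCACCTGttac
The Siglech window held 3 E-boxes, the Cd300c window 4 and the Klk1b27 window 2. The letters are common. Of 27025 genes with a promoter in the table, 72.1% had at least 1 E-box in such a window. Of the 2996 genes tested between pDCs and cDCs that have a promoter in the table it was 62.9%, and of the 144 called higher in pDCs it was 65.3%. A match is a description of the letters and not a binding site.

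The 3 libraries held 9891861 UMIs (HC replicate 1), 8814690 (HC replicate 2) and 10206236 (CSD replicate 1), and 2599, 1702 and 2756 cells. The pDCs numbered 21, 12 and 28 and brought 93155, 49114 and 114009 UMIs, so levels are given as CPM, the UMIs of a gene scaled to a total of 1000000 UMIs over the cells of that kind in a library, always in the order HC replicate 1, HC replicate 2, CSD replicate 1. The median pDC had 3862 UMIs (range 2464 to 9827) and 1481 genes, against a median of 2407 UMIs over all cells. In barcodes too poor to hold a cell (100 UMIs or fewer), free RNA could be read directly, and the neutrophil transcripts left in pDCs put free RNA at up to 28.9%, 24.0% and 25.4% of their UMIs. None of the 34 cells whose barcode occurred in more than 1 library was a pDC. The doublet caller Scrublet put 5 pDCs (2, 0 and 3) in the top 5% of scores of their library. None of the pDCs met the rule for cDCs, mature B cells or monocytes.

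pDCs made up 0.808% of cells in HC replicate 1 (95% Clopper-Pearson interval 0.501 to 1.23), 0.705% in HC replicate 2 (0.365 to 1.23) and 1.02% in CSD replicate 1 (0.676 to 1.47). The CSD library had the highest share, and the intervals, which cover counting error only, overlapped throughout. The share stood 0.259 percentage points above the HC mean. Neutrophils, taken here as cells with at least 5% of UMIs from 8 neutrophil genes, filled 33.9%, 40.1% and 53.6% of the libraries and so set part of that denominator. Outside them, pDCs were 1.22% (0.758 to 1.86), 1.18% (0.610 to 2.05) and 2.11% (1.39 to 3.05) of cells, 0.910 points above the HC mean, and the CSD interval still overlapped both HC intervals. With 1 library against 2 there are 3 ways to draw the groups, so no permutation test could reach 0.05 and none was run.

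**Figure D1:**
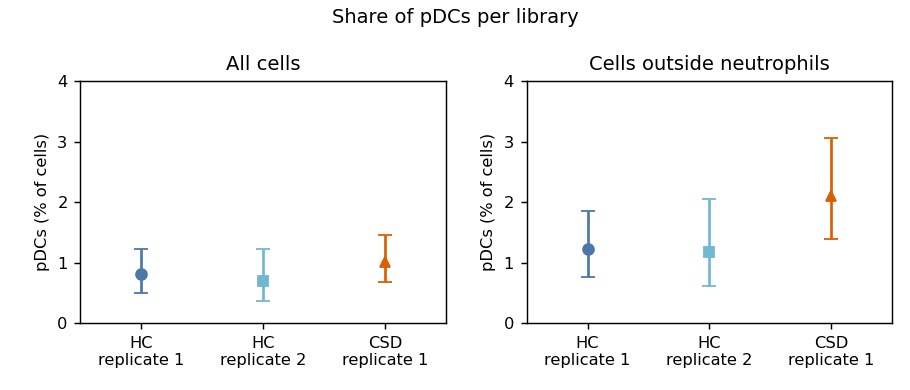
pDCs as a percentage of all cells (left) and of cells outside the neutrophils (right) in each of the 3 libraries, with points for the share and bars for the 95% Clopper-Pearson interval. The CSD library is highest in both panels, at 1.02% and 2.11%, and the intervals of all 3 libraries overlap.

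The genes of the rule were far from even among the 61 cells. Siglech, a sialic acid-binding receptor of the pDC surface (ENSMUSG00000051504), stood at 1127, 1792 and 1614 CPM and was detected in all 61 cells. Cox6a2, a muscle-type subunit of cytochrome c oxidase, stood at 1868, 1731 and 1438 and was seen in 59 cells. Smim5, a small membrane protein gene, stood at 794, 692 and 929.8 and was seen in 55. In all other cells of the same libraries, Siglech averaged 81.8, 73.9 and 36.2 CPM, Cox6a2 14.1, 21.5 and 13.7, and Smim5 40.8, 46.2 and 52.8.

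Ccr9, the receptor of the gut and thymus chemokine CCL25, stood at 279, 407 and 272 in 41 cells. Klk1, a tissue kallikrein protease, stood at 365, 611 and 263 in 30. The C-type lectin gene Cd209d was the scarcest, in 16 cells, and the one furthest apart between libraries at 215, 285 and 52.6, lowest in the CSD library. Because these genes chose the cells, none of their differences between libraries was tested.

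All 6 markers were found in 6 pDCs, 5 in 18, 4 in 25 and 3 in 12. The summed markers took a median of 0.497% of a pDC's UMIs and at most 0.908%, and 19 pDCs lay under 0.4%. The lowest members held 0.203% (CSD), 0.224% (HC replicate 1), 0.238% (CSD) and 0.250% (HC replicate 1). Another 10 cells failed by the marker limit alone, the highest of them at 0.166%, so among cells that met the other conditions none lay between 0.166% and 0.203%. A further 6 cells failed only by having too few markers detected, and 2 only by microglial transcripts, 1 of which was a CSD cell with all 6 markers, 0.424% of its UMIs in them and 13 UMIs of P2ry12 and Tmem119. Of the members, 51 had no UMI of those 2 genes.

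The label held up against genes the rule did not use. Tcf4, the factor that specifies the lineage, stood at 601, 774 and 999.9 CPM in pDCs, 69.3, 18.1 and 110.3 in cDCs and 64.7, 57.4 and 61.1 in mature B cells of the same libraries. Every pDC library lay above every library of either other population. Before thinning, 57 of the 61 pDCs had a Tcf4 UMI against 11.3% of mature B cells, and with each cell thinned to 500 UMIs the shares were 39.3% of pDCs and 3.18% of mature B cells (median depths before thinning 3862 and 1741). Irf8, required for dendritic cell development, was present in all 61 pDCs at 2898, 3461 and 3728 CPM, against 69.3, 379 and 82.7 in cDCs and 453, 526 and 549.7 in mature B cells. Bst2 (tetherin, the antigen of the pDC antibody PDCA-1) stood at 2158, 2667 and 2552 in pDCs, 139, 181 and 82.7 in cDCs and 120.1, 86.1 and 52.3 in mature B cells.

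Other cell types were looked for in the pDCs by their own markers. Most lists had some members present. Of 5 microglia markers 4 were detected and Sall1 was at 0, and the list summed to 167 to 366 CPM in pDC libraries, 131 to 328 in mature B cells and 647 to 1218 in empty droplets. Of 4 basophil and mast cell markers, Gata2 and Ms4a2 were at 0, while Mcpt8, a basophil protease, gave 23 UMIs, at 89.7 CPM over the pDCs against 85.2 over mature B cells. All 7 matched T and NK cell markers were detected, at a sum of 246 to 509 CPM in pDC libraries, 235 to 634 in cDCs, 78.5 to 220.1 in mature B cells and 344 to 631 in empty droplets. Among them Cd3d, a subunit of the T cell receptor complex, gave 22 UMIs, 3.57-fold above mature B cells (counting interval 1.72 to 7.71) and 1.70-fold above cDCs (0.752 to 4.19), and Cd3g gave 13. Of 4 endothelial and olfactory neuron markers 2 were detected. The endothelial genes Cldn5 and Flt1 were at 0, while Pecam1 gave 6 UMIs in HC and 5 in CSD pDCs, and Omp 9 and 8. The part of such transcripts in the results was not tested. Of 8 cDC markers 5 were detected, and Xcr1, Zbtb46 and Fscn1 were at 0. Fscn1 was at 0 in the cDCs too. The cDC genes Cd209a, at 139.6, 407 and 70.2, and Clec10a, at 96.6, 204 and 175, were present, below their levels in cDCs (1744, 2095 and 1240.4 and 462, 777 and 496), which were chosen partly by those genes. Clec9a, another gene of the cDC rule, gave 8 UMIs in pDCs and 4 in cDCs, 1.39-fold higher in pDCs (counting interval 0.373 to 6.31). Against mature B cells Cd209a and Clec10a were called higher in pDCs (Cd209a: log2 difference 3.41, SE 0.55, adjusted p = 0.000173, and Clec10a: log2 difference 4.84, SE 0.68, adjusted p = 3.70e-05). Both genes entered that test only through the pDCs, so their presence in it depended on the population in which they are high. The 283 mature B cells gave 9 UMIs of Cd209a and 2 of Clec10a. Cd209a and Cd209d belong to 1 cluster of near-identical lectin genes, so reads could be shared between them. In the CSD library, 1 pDC had 13.9% of its UMIs from the 8 neutrophil genes and was among the top Scrublet scores, while the median pDC of a library had from 3.20% to 3.99%.

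To place the pDCs among their closest relatives, their UMIs were summed per library and set against those of 33 cDCs (15, 12 and 6), then against those of 283 mature B cells (113, 101 and 69), a lineage that shares several pDC genes. Both groups were picked by their own marker genes, with the pDC markers absent. The genes that chose either group were left out of the calls, but other genes travel with them, so these tests describe how the chosen cells differ and are no independent test of what defines a pDC. The fit was edgeR's quasi-likelihood test with the library as a block, and genes were called at a Benjamini-Hochberg adjusted p under 0.05. Differences are pDC minus the other group on the log2 scale.

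Against cDCs, 424 of 3850 genes were called (11.0%), 197 higher in pDCs (5.12%) and 227 lower (5.9%). Of 25 pDC identity genes outside the rule, 22 were tested and 19 were higher, none lower, with a median log2 difference of 3.39 against 0.00 over all genes tested. Against mature B cells, 467 of 2902 genes were called (16.1%), 241 higher (8.3%) and 226 lower (7.79%), and of the identity genes 22 were tested, 20 were higher and 1 lower, with a median of 3.33 against 0.01. Of the genes called higher in pDCs, 42.1% against cDCs and 72.2% against mature B cells entered the test only because over 15% of pDCs had a UMI, so their presence in the test depended on the population in which they are high. This list of identity genes was drawn up from textbook pDC genes with earlier results of these data known.

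Lair1, an inhibitory collagen receptor, stood at 429, 366 and 325 CPM in pDCs against 11.6, 18.1 and 0 in cDCs and 9.24, 4.78 and 0 in mature B cells (log2 difference 4.76, SE 0.56, adjusted p = 6.01e-13 against cDCs, and log2 difference 5.69, SE 0.43, adjusted p = 1.73e-08 against mature B cells). Cd7, a T cell and NK cell surface glycoprotein that mouse pDCs also carry, stood at 440.1, 713 and 632, against 34.7, 0 and 27.6 and 18.5, 0 and 8.72 (log2 differences 4.38 and 5.61). Pacsin1, an adaptor of membrane trafficking, stood at 118, 285 and 158, against 1 UMI in all cDCs and 1 in all mature B cells. In each of these 3 genes, all 3 pDC libraries exceeded all 6 libraries of the other populations. Lair1, Cd7 and Pacsin1 entered both tests only through the pDCs, so their presence there depended on the population in which they are high. A UMI was seen in 1.06%, 1.77% and 0.353% of mature B cells. Plac8, a small cysteine-rich protein, was high in pDCs at 2941, 3013 and 3394 and was lower but plain in cDCs (439, 434 and 413) and in mature B cells (605, 555 and 681).

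Ly6d parted the comparisons. This GPI-anchored marker of lymphoid progenitors was 2866, 2565 and 5464 in pDCs against 116, 181 and 82.7 in cDCs (log2 difference 4.51, SE 0.21, adjusted p = 1.18e-48). In mature B cells it was 3553, 3464 and 3507, and the difference did not pass the test (log2 difference -0.23, adjusted p = 0.398), with 2 pDC libraries below and 1, the CSD library, above all 3 B cell libraries. Fcrla, an intracellular Fc receptor-like protein of B cells, was the identity gene called lower than in mature B cells, at 96.6, 122 and 228 against 231, 359 and 279 (log2 difference -1.11, SE 0.26, adjusted p = 0.00502), and was higher than in cDCs.

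**Figure D2:**
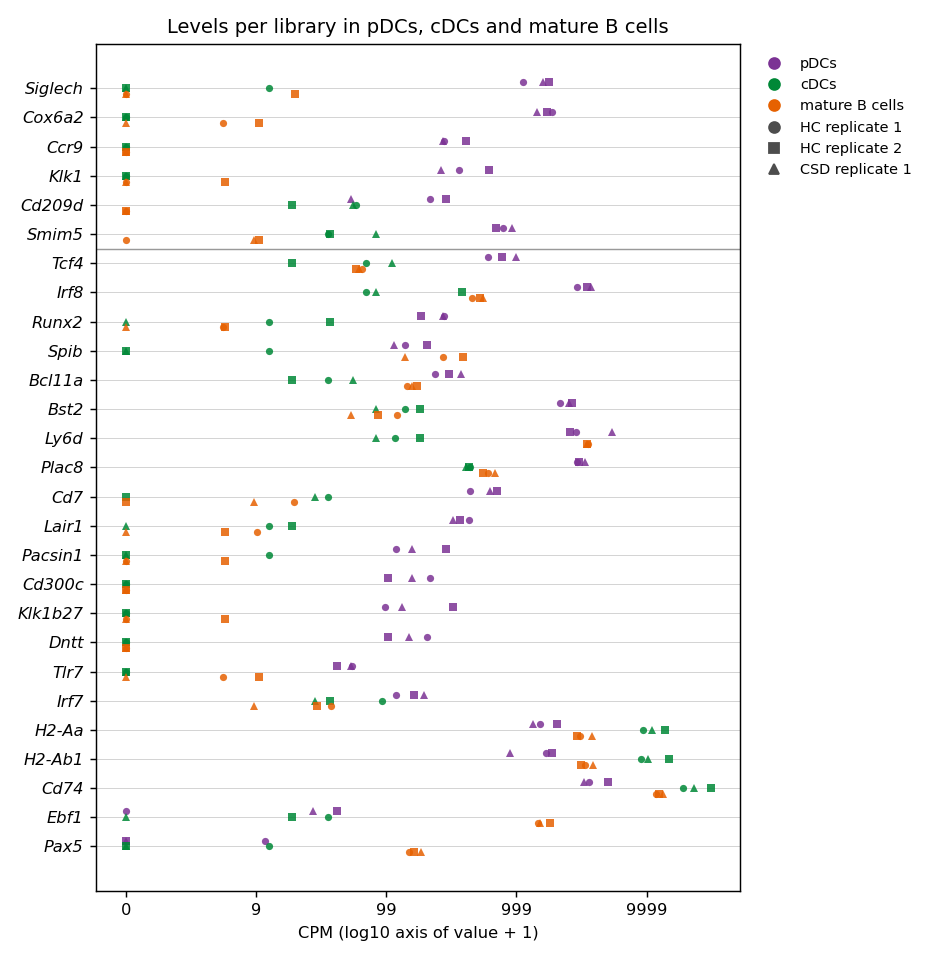
Levels of 27 genes in CPM (log10 axis of the value plus 1) in pDCs (purple), cDCs (green) and mature B cells (orange), 1 point per library with its shape for the library. The genes above the grey line chose the pDCs and those below did not, and for Tcf4, Bst2 and Plac8 every pDC point lies right of every other point.

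Of the genes with the greatest difference in each direction, several were counted only in the pDCs of these 3 populations. Cd300c (ENSMUSG00000058728, chr11:114956116-114969157), a receptor of the CD300 family, gave 20, 5 and 18 UMIs in pDCs and 0 in cDCs and mature B cells, at least 9.97-fold and at least 30.2-fold higher when the other group is set at 3 UMIs. Dntt (ENSMUSG00000025014, chr19:41029275-41059525), the terminal transferase that adds untemplated bases during V(D)J joining, gave 19, 5 and 17 UMIs in pDCs and 0 in both, at least 9.50-fold above cDCs. Cells with Dntt were not admitted as mature B cells, so its 0 there was set by that choice. Klk1b27 (ENSMUSG00000063177, chr7:44052290-44056712), a kallikrein next to Klk1 and close to it in sequence, gave 9, 16 and 15 UMIs in pDCs, 0 in cDCs and 1 in mature B cells. Its reads could be shared with Klk1, a gene of the rule, so its count is uncertain.

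The remaining 7 genes at the top of the list against cDCs, each at 0 UMIs in cDCs, were Paqr5, D13Ertd608e, Sh3bgr, Hs3st1, Lefty1, Atp2a1 and Havcr1, and they were from at least 4.17-fold to at least 8.11-fold higher in pDCs. Against mature B cells the list again held Cd300c, Paqr5, D13Ertd608e, Sh3bgr, Atp2a1 and Havcr1 and added P2ry14, the receptor for UDP-glucose, at 16, 8 and 18 UMIs against 0 (at least 29.5-fold higher), and Rnd3, Sla2 and Tbc1d8.

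The 10 genes furthest below cDCs were Snx10, Tnip3, Cysltr1, Slamf8, Sult1a1, Ccl17, Dab2, Cd14, Kcne3 and AI839979. Ccl17, a chemokine that draws CCR4-bearing T cells, gave 3 UMIs in pDCs and 133 in cDCs, 63.8-fold lower in pDCs (counting interval 21.3 to 313), although HC replicate 1 alone held most of the cDC signal (1455, 90.3 and 55.1 CPM). Tnip3, an inhibitor of NF-κB signalling, gave 1 UMI against 62, 89.2-fold lower (15.4 to 3578). Snx10, a sorting nexin, and Cd14, the lipopolysaccharide co-receptor, were at 0 in pDCs, at least 9.11-fold and at least 7.19-fold lower than in cDCs. Against mature B cells the 5 genes furthest below were Scd1, Cd55, the B lineage factors Ebf1 and Pax5, and Ccr7. Ebf1 gave 5 UMIs in pDCs and 874 in mature B cells, 83.0-fold lower (35.4 to 256), and Pax5 gave 1 and 87, 41.3-fold lower (7.22 to 1649). Scd1, the stearoyl-CoA desaturase, was at 0 against 70 UMIs, at least 11.1-fold lower.

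By role, the transcription factors were split. Of 16, 13 were tested against cDCs, 5 were higher in pDCs and 3 lower, with a median of 1.13. Over all genes tested, 5.12% were higher and 5.9% lower. Tcf4 (log2 difference 3.38, SE 0.35, adjusted p = 2.76e-16), Irf8 (log2 difference 4.10, SE 0.21, adjusted p = 3.19e-44), Runx2, Spib and Bcl11a were higher than in cDCs. Runx2 stood at 279, 183 and 272 CPM in pDCs and 11.6, 36.1 and 0 in cDCs, and Bcl11a, a partner of TCF4 in pDC development, at 236, 305 and 377 and 34.7, 18.1 and 55.1. Spib gave 13, 10 and 13 UMIs in pDCs and 1 in cDCs (log2 difference 4.26, called in 13 of 14 alternatives). Runx2 and Spib entered the test against cDCs only through the pDCs, and Batf3 only through the cDCs. The 3 lower ones were Id2 at 64.4, 163 and 78.9 against 219, 199 and 386 (log2 difference -1.67, SE 0.38, adjusted p = 0.000411), the cDC factor Batf3 with 1 UMI in pDCs, and Cbfa2t3 (ETO2) at 53.7, 143 and 105 against 231, 145 and 248. Id2, the antagonist of TCF4, thus ran the other way to Tcf4 between these populations.

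Against mature B cells 10 factors were tested, 6 were higher and 1 lower, beside 8.3% and 7.79% of all genes tested. Tcf4, Irf8 and Runx2 were again higher (log2 differences 3.39, 2.49 and 5.52), and Bcl11a was higher by 0.72 but was called in 5 of 14 alternatives. Xbp1, the factor of the secretory programme, was 182, 204 and 219 in pDCs against 32.3, 52.6 and 43.6 (log2 difference 2.01, SE 0.35, adjusted p = 0.000352), and the difference from cDCs was 1.15 (adjusted p = 0.0605). Tcf4, Runx2 and Xbp1 entered the test against mature B cells only through the pDCs. Of mature B cells, 11.3% had a UMI of Tcf4 and 0.707% of Runx2. Xbp1 gave 18 UMIs in HC and 5 in CSD mature B cells. Spib, which B cells also use, was lower than in mature B cells, at 139.6, 204 and 114 against 273, 388 and 139.6 (log2 difference -0.99, SE 0.25, adjusted p = 0.00856), with the pDCs of 1 library above the B cells of the CSD library. All factor genes except Zbtb46, which marks cDCs and was at 0, had at least 1 UMI in a pDC.

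The nucleic acid sensing route was represented by its receptors at the edge of detection and by its lysosomal enzymes at high level. Tlr7, the receptor for single-stranded RNA, gave 5, 2 and 6 UMIs in 13 pDCs, 0 in cDCs (at least 3.01-fold lower there) and 3 in mature B cells. It entered both tests only through the pDCs, 21.3% of which had a UMI against 1.06% of mature B cells, and with no filter on the share of cells it did not pass (edgeR, adjusted p = 0.101 against cDCs and 0.0508 against mature B cells). Tlr9, the receptor for unmethylated CpG DNA, had 0 UMIs in pDCs and 6 in all cells together, so its level in pDCs was not detectable at this depth. Irf7, the master factor of interferon-alpha induction, gave 11, 8 and 22 UMIs, or 118, 163 and 193 CPM, against 92.4, 36.1 and 27.6 in cDCs (log2 difference 1.13, adjusted p = 0.136) and 37.0, 28.7 and 8.72 in mature B cells (log2 difference 2.26, SE 0.46, adjusted p = 0.00148). All 3 pDC libraries lay above all libraries of both other populations for Irf7, though the difference from cDCs did not pass the test. Irf7 too entered the test against mature B cells only through the pDCs, 42.6% of which had a UMI against 4.59% of mature B cells.

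The endolysosomal protease genes Ctsl and Ctsb, whose products process the endosomal Toll-like receptors, were higher in pDCs than in both populations. Ctsl stood at 386, 835 and 412 against 34.7, 36.1 and 0 in cDCs and 41.6, 47.8 and 0 in mature B cells (log2 differences 3.99 and 3.77). It entered the test against mature B cells only through the pDCs, 82.0% of which had a UMI against 6.01% of mature B cells. Ctsb stood at 784, 1242 and 1246 against 254, 271 and 386 and 263, 196 and 148 (log2 differences 1.66 and 2.11). Pld4, an endolysosomal exonuclease that degrades single-stranded nucleic acid, stood at 698, 814 and 693 against 335, 289 and 441 and 185, 163 and 69.8 (log2 differences 0.90 and 2.12). Unc93b1, the chaperone that carries the endosomal receptors, was 129, 326 and 158 in pDCs and did not pass either test (log2 differences 0.06 and -0.42). In all, 4 of 14 tested genes of this route were higher than in cDCs and 5 of 11 than in mature B cells, Tlr7 counted in both, and none was lower. Over all genes tested, 5.12% were higher than in cDCs and 8.3% than in mature B cells.

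No interferon transcript was counted in a pDC. The 20 type I and type III interferon genes in the annotation had 0 UMIs in the 61 pDCs, which allows up to 4.92% of pDCs with a UMI and up to 11.7 CPM. All 7057 cells held 3 UMIs of these genes and the empty droplets held 0. Of the receptor and JAK-STAT genes, Ifnar2, a chain of the type I interferon receptor, was 215, 81.4 and 193 in pDCs against 46.2, 72.3 and 27.6 in cDCs and 41.6, 43.1 and 43.6 in mature B cells (log2 differences 1.58 and 1.72, called in 9 of 14 and 12 of 14 alternatives). Ifnar2 entered the test against mature B cells only through the pDCs, as the 283 mature B cells gave 23 UMIs. Ifngr1, of the interferon-gamma receptor, was lower than in cDCs (log2 difference -1.60).

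Genes that interferon induces were mixed. Of 24 tested against cDCs, 3 were higher (Bst2, Ly6e and Ly6a) and 4 lower (Ifitm2, Ifitm3, Samd9l and Phf11b), with a median of -0.24. Over all genes tested, 5.12% were higher and 5.9% lower. Of 17 tested against mature B cells, 3 were higher (Bst2, Irf7 and Trim30a) and 2 lower (Ifi203 and Samd9l), with a median of 0.46. Over all genes tested against mature B cells, 8.3% were higher and 7.79% lower. Bst2 and Irf7 entered that test only through the pDCs, with a UMI in 13.8% and 4.59% of mature B cells. The antiviral membrane gene Ifitm3 was 590.4, 611 and 746 in pDCs against 2495, 2438 and 2619 in cDCs (log2 difference -2.10, SE 0.16, adjusted p = 1.76e-26). Rsad2, Oas3, Oasl1 and Oasl2, antiviral effectors, were at 0 UMIs in pDCs. Isg15, a ubiquitin-like modifier, gave 6, 3 and 12 UMIs. Summed over the list, levels were 7353, 8205 and 8271 CPM in pDCs, 7450, 5816 and 6616 in cDCs and 4875, 4282 and 4956 in mature B cells.

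MHC class II genes were lower in pDCs than in cDCs throughout. All 13 tested genes of class II presentation and costimulation were lower than in cDCs (median -2.62), and 8 of 11 were lower than in mature B cells (median -1.50) with none higher. Over all genes tested, 5.9% were lower than in cDCs and 7.79% than in mature B cells. Cd74, the invariant chain, stood at 3596, 5090.2 and 3307 CPM in pDCs, 18885, 31104 and 23319.9 in cDCs and 11778, 12397 and 13358 in mature B cells (log2 difference -2.76, SE 0.09, adjusted p = 1.89e-68 against cDCs, and log2 difference -1.90, SE 0.15, adjusted p = 2.49e-08 against mature B cells). H2-Aa and H2-Ab1, the chains of I-A, were lower than in cDCs as well (log2 differences -2.96 and -3.10). Ciita, the class II transactivator, gave 2 UMIs in pDCs and 21 in cDCs. Of the costimulatory genes, Cd80 was at 0 and Cd86 gave 5 UMIs. Free RNA carries Cd74 and the class II chains too, since these stood at 13694, 13408 and 6534 CPM over the list in empty droplets against 8652, 12624 and 7561 in pDCs, so the level that pDCs themselves make is uncertain at its lower end. Of the MHC class I genes, 0 of 13 were called against cDCs and 1 of 11, Pdia3, against mature B cells, beside 11.0% and 16.1% of all genes tested.

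Some receptors that steer cells between blood and tissue differed from those of the other populations. Of 12 trafficking receptors tested against mature B cells, 5 were higher (Selplg, Ccr2, Cxcr3 and Cd44 among them) and 1 lower (Ccr7). This stood beside 8.3% and 7.79% of all genes tested. Against cDCs 2 of 11 were higher (Selplg among them) and 1 lower (Ccr2), beside 5.12% and 5.9% of all genes tested. Selplg, the P-selectin ligand, stood at 483, 631 and 579 against 208, 163 and 303 in cDCs and 102, 119.6 and 69.8 in mature B cells. Ccr2, the receptor that brings monocytes out of marrow, lay between the other populations at 85.9, 61.1 and 87.7, against 196, 307 and 248 in cDCs and 9.24, 19.1 and 26.2 in mature B cells. Ccr7, which guides cells to lymph nodes, gave 1 UMI in pDCs and 83 in mature B cells. Cxcr3, the receptor for interferon-induced chemokines, gave 3, 2 and 10 UMIs in pDCs and 0 in mature B cells. Ccr2, Cxcr3 and Cd44 entered the test against mature B cells only through the pDCs. The 283 mature B cells gave 9 UMIs of Ccr2, 0 of Cxcr3 and 14 of Cd44.

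Signalling adaptors of the pDC receptors were abundant. Tyrobp (DAP12), through which Siglec-H signals, stood at 4605, 6169 and 5069.8 against 2818, 2673 and 2977 in cDCs and 1252, 1067 and 977 in mature B cells (log2 differences 0.73 and 2.03). Fcer1g was 1557, 2077 and 1877, with log2 differences of -0.41 from cDCs (called in 5 of 14 alternatives) and 0.87 from mature B cells. Of the growth factor and regulatory receptors, 6 of 12 were higher and 1 lower against cDCs, beside 5.12% and 5.9% of all genes tested. Against mature B cells 7 of 9 were higher, beside 8.3% of all genes tested. Il3ra gave 5 UMIs and Flt3 also 5, too few to pass the filter against mature B cells.

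Of the B lineage genes, Dntt and Blnk, a B cell receptor adaptor, were higher than in cDCs (Blnk at 150.3, 244 and 219 against 69.3, 54.2 and 0), while Pax5, Ebf1 and Vpreb3 were lower than in mature B cells. Rag1 gave 1 UMI, Igll1 3 and Vpreb1 4. Of 15 genes of the secretory pathway, 3 were higher than in cDCs (Sec61b, Hsp90b1 and Mzb1) and none was lower, beside 5.12% and 5.9% of all genes tested. Mzb1, a chaperone of antibody-secreting cells, was 215, 224 and 298 in pDCs, 11.6, 36.1 and 27.6 in cDCs and 384, 388 and 489 in mature B cells, so it was higher than in cDCs and lower than in mature B cells (adjusted p = 1.29e-06 and 0.00117). Of 10 other cytochrome c oxidase subunits, 0 were called against cDCs and 1, Cox4i1, against mature B cells, beside 11.0% and 16.1% of all genes tested. Cox6a2 chose the cells, so its own difference was not tested beside theirs.

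Immediate early genes were mostly lower than in cDCs. Of 14, whose RNA rises within minutes of cell handling, 10 were lower than in cDCs and 1, Klf2, was higher (median -1.34), and 4 of 10 were lower than in mature B cells. Over all genes tested, 5.9% were lower and 5.12% higher than in cDCs, and 7.79% were lower than in mature B cells. Fos was 483, 611 and 377 in pDCs against 1120.4, 1879 and 1323 in cDCs, and Atf3 was 139.6, 61.1 and 17.5 against 485, 723 and 331. Of 9 glucocorticoid-responsive and metallothionein genes tested against cDCs, 4 were lower (Mt1, Mt2, Nfkbia and Dusp1) and none higher, beside 5.9% and 5.12% of all genes tested. Mt1 was 96.6, 40.7 and 87.7 against 820.1, 1282 and 772 (log2 difference -3.60, SE 0.30, adjusted p = 9.58e-23). Tsc22d3 (GILZ), a glucocorticoid-induced leucine zipper, was 96.6, 224 and 193 against 444, 421 and 672 in mature B cells (log2 difference -1.92, SE 0.24, adjusted p = 6.96e-06).

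Whether the pDCs of stressed mice differed from those of unstressed mice was then asked on the 3 sums of pDC UMIs. Of 2848 genes seen in more than 15% of pDCs, 5 passed (0.176%) in edgeR's quasi-likelihood test, in which the 2 HC libraries alone gave the spread. Birc5 was higher in CSD (0.0351%), and Mgp, Dcn, Apoe and Etnk1 were lower (0.14%). At an unadjusted p under 0.05 there were 139 genes, and DESeq2 called 0 of the same genes, with 8 at an unadjusted p under 0.05.

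Birc5 (survivin, ENSMUSG00000017716, chr11:117849251-117855743), an inhibitor of apoptosis that is made during mitosis, gave 3, 1 and 34 UMIs in the pDCs of the 3 libraries, or 32.2, 20.4 and 298 CPM (log2 difference 3.32, SE 0.60, adjusted p = 0.000127). The CSD library lay above both HC libraries. Its UMIs came from few cells, since 3 CSD pDCs held 30 of the 34 (14, 5 and 11) and only 6 of the 28 CSD pDCs had any. It entered the test with 10 of the 61 pDCs, just over the limit of 15%, and 6 of the 10 were CSD cells. With no filter on the share of cells it passed as well (log2 difference 3.43, adjusted p = 0.000138). In mature B cells Birc5 was 27.7, 71.8 and 26.2 CPM and in empty droplets 116, 97.7 and 202. Without those 3 cells and the 1 HC pDC that also carried most cell cycle genes, Birc5 gave 2, 1 and 4 UMIs and fell under the filter.

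Of the 4 genes lower in CSD, 3 are best known from other meningeal cells. Mgp, a matrix protein of fibroblasts and vessel walls, was 258, 366 and 35.1 in pDCs (log2 difference -3.06, SE 0.62, adjusted p = 0.00141), 286, 388 and 61.1 in mature B cells and 1686, 1353 and 572 in empty droplets. Dcn (decorin), a collagen-binding proteoglycan of fibroblasts, gave 13, 7 and 0 UMIs in pDCs, at least 5.36-fold lower in CSD (adjusted p = 0.00767), and was 672, 488 and 139 CPM in empty droplets, where it also passed the test (log2 difference -1.95, adjusted p = 0.0401). Apoe, the lipid carrier that macrophages make in quantity, was 2093, 1140.2 and 588 in pDCs (log2 difference -1.51, SE 0.36, adjusted p = 0.0243), 2379.7, 1034 and 1073 in mature B cells and 6718, 2187 and 2510.1 in empty droplets. After the empty-droplet profile was subtracted, Mgp was left with 0, 2 and 0 UMIs in pDCs and Dcn with 0, 1 and 0, and neither passed (adjusted p = 0.999 for both), while Apoe was left with 14, 30 and 0 and passed (adjusted p = 3.85e-07). With no filter on the share of cells, Mgp and Dcn passed (adjusted p = 0.00846 and 0.0202) and Apoe did not (adjusted p = 0.899). In all 3 genes the CSD pDCs lay below both HC libraries, as did the CSD empty droplets for Mgp and Dcn but not for Apoe.

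Etnk1, an ethanolamine kinase of phospholipid synthesis, gave 12, 5 and 0 UMIs in pDCs, at least 4.38-fold lower in CSD (adjusted p = 0.0411). It stood at 29.6, 20.2 and 25.0 CPM in empty droplets, with no drop there. Etnk1 and Dcn had no UMI in CSD pDCs, so both entered the test through HC cells alone (13 and 14 pDCs), and with no filter Etnk1 did not pass (adjusted p = 0.0741). It passed in 3 of 11 alternatives, against 8 of 11 for Mgp, 6 of 10 for Dcn, 7 of 11 for Apoe and 6 of 8 for Birc5.

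Beyond these 5, the lowest p-values among genes with the CSD library outside both HC libraries belonged to genes that did not pass. On the higher side they were Cks1b (6, 0 and 25 UMIs, log2 difference 2.32, adjusted p = 0.0512) and H2afx (log2 difference 1.81), both of the cell cycle and chromatin, the globin Hbb-bs (1.18), Ifitm6 (1.54) and the chromatin protein Hmgb2 (1.31), with adjusted p from 0.0512 to 0.119. With the markers at 0.4% of UMIs or more, H2afx and Hmgb2 turned to -1.26 and -0.53, and after subtraction of the empty-droplet profile Hbb-bs turned to -6.07. On the lower side they were Sparc (9, 6 and 0 UMIs), the complement gene C1qa (-1.52), the survival factor Mcl1 (-2.31), AW112010 (-1.71) and the mRNA decay factor Zfp36 (-2.05), with adjusted p from 0.0526 to 0.177.

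By group, none of 16 interferon-stimulated genes, 11 sensing genes, 10 transcription factors and 22 identity genes that were tested passed between CSD and HC. Of all 2848 genes tested 0.176% passed, so none passing does not show that these groups were unchanged. Their median log2 differences were -0.07, -0.28, 0.20 and 0.06, against -0.01 over all genes tested. Irf7 was 118, 163 and 193 CPM (log2 difference 0.49, adjusted p = 0.995), highest in CSD, and Bst2 was 2158, 2667 and 2552 (0.08), with the CSD library between the HC libraries. The 6 glucocorticoid-responsive genes tested all had a log2 difference above 0 (median 0.48) and none passed. All 6 tested cell cycle genes lay above 0 (median 1.21), of which Birc5 passed. Of 9 class II genes tested, 1 lay above 0 (median -0.40) and none passed.

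Markers of other cells moved between the libraries as well. The 8 neutrophil markers all lay above 0 in CSD pDCs (median 0.54), the 4 tested erythroid markers all lay above 0 (median 1.04), and the 4 tested border macrophage markers all lay below 0 (median -1.44, Apoe called). The 2 tested fibroblast markers were the called genes Mgp and Dcn. Of 5 fibroblast markers 4 were detected in pDCs. Igfbp2 was at 0 there, and it gave only 1 UMI in cDCs and 2 in mature B cells. The part of these transcripts in the pDC results was not tested beyond the alternatives given.

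The CSD difference in pDCs was compared with that in mature B cells by an interaction term, which sets aside only what moved alike in both. Free RNA was put at up to 37.3%, 34.0% and 25.7% of UMIs in mature B cells, against 28.9%, 24.0% and 25.4% in pDCs. It did not move alike in pDCs and mature B cells, so the term does not remove it. Of 2845 genes, 5 passed (0.176%), 3 with a more positive difference in pDCs (0.105%) and 2 with a more negative one (0.0703%). At an unadjusted p under 0.05 there were 179. DESeq2 called 0, with 5 at an unadjusted p under 0.05.

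Ly6d (ENSMUSG00000034634, chr15:74762056-74763620) was 2866, 2565 and 5464 CPM in pDCs and 3553, 3464 and 3507 in mature B cells, so the CSD library was highest in pDCs and between the HC libraries in mature B cells (log2 difference 0.93, SE 0.17, adjusted p = 0.00014). In empty droplets Ly6d was far lower, at 278, 516 and 222. Within pDCs alone the difference of 0.99 did not pass (adjusted p = 0.126). Hmgb2 was 429, 183 and 833 in pDCs and 420.5, 478 and 279 in mature B cells (log2 difference 1.92, SE 0.40, adjusted p = 0.0012), and Tuba1b, an alpha-tubulin that rises in dividing cells, was 258, 183 and 439 and 171, 249 and 78.5 (log2 difference 2.21, SE 0.56, adjusted p = 0.0477). For both, the CSD library was the highest in pDCs and the lowest in mature B cells.

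H2-Ab1 (ENSMUSG00000073421, chr17:34257689-34269419) was 1675, 1894 and 895 in pDCs and 3359, 3119.7 and 3900 in mature B cells (log2 difference -1.32, SE 0.21, adjusted p = 2.83e-06). H2-Aa was 1514, 2056 and 1333 and 3091, 2914 and 3839 (log2 difference -0.81, SE 0.20, adjusted p = 0.0477). For both, the CSD library was the lowest in pDCs and the highest in mature B cells. In empty droplets H2-Ab1 was 2999, 2559 and 1344 and H2-Aa 2516, 2113 and 1126, lowest in CSD as in pDCs. After the empty-droplet profile was subtracted none of the 5 genes passed. The log2 differences kept their sign, at -1.49 for H2-Ab1, -0.74 for H2-Aa, 1.07 for Ly6d, 5.41 for Hmgb2 and 7.91 for Tuba1b. Those of Hmgb2 and Tuba1b rest on the floor, since mature B cells of the CSD library were left with 22.9 and 0 CPM. Within pDCs alone they were then 1.92 and 1.15, and neither passed. H2-Ab1 passed in 9 of 11 alternatives, Ly6d and Hmgb2 each in 7 of 11, H2-Aa in 5 of 11 and Tuba1b in 4 of 11.

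**Figure D3:**
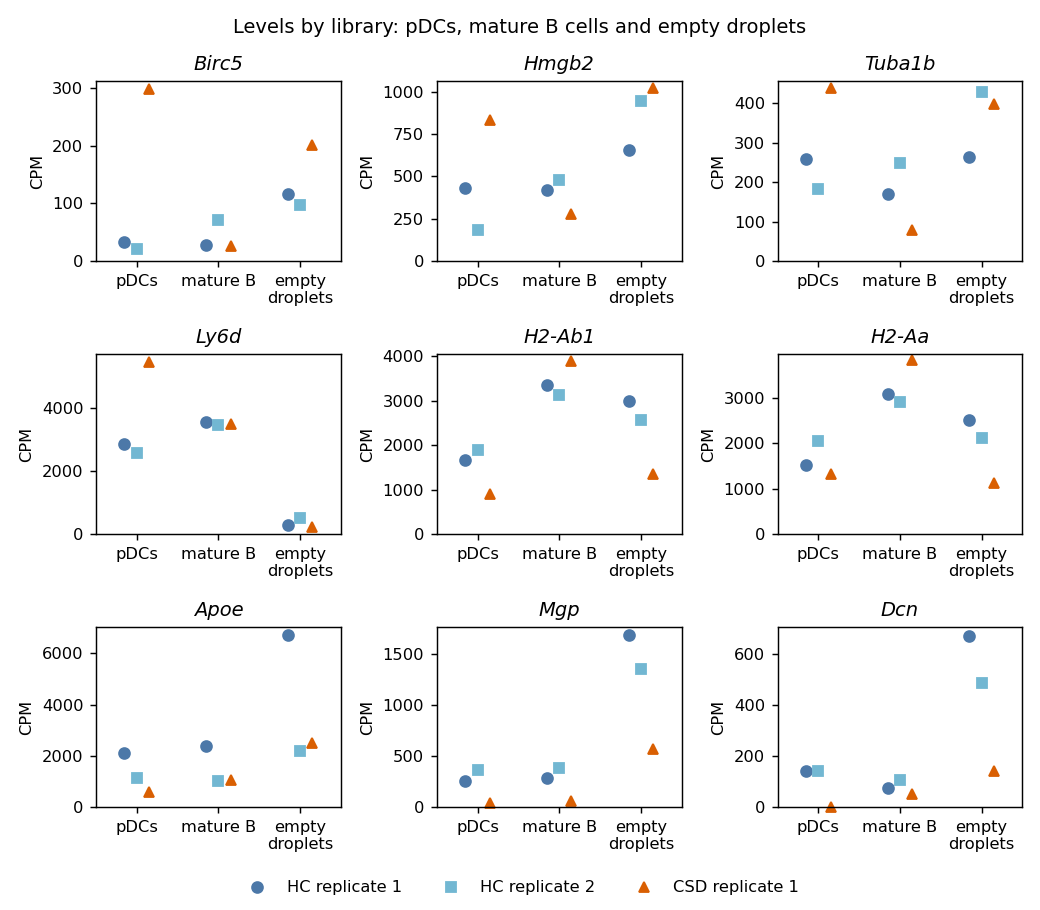
Levels of 9 genes in CPM in pDCs, mature B cells and empty droplets, 1 point per library (circle and square for the HC libraries, triangle for CSD) and each panel on its own scale from 0. In pDCs the triangle lies above both HC points for Birc5, Hmgb2, Tuba1b and Ly6d and below both for the other 5 genes, and for Mgp and Dcn it is also lowest in mature B cells and empty droplets.

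Single cells showed where the Ly6d and class II differences sat. Ly6d took between 0.050% and 1.41% of a pDC's UMIs, with a gap between 0.669% and 0.851%. A limit of 0.8%, set after these values were seen, left 1 of 21 pDCs of HC replicate 1, 0 of 12 of HC replicate 2 and 8 of 28 of the CSD library above it. Class II RNA, summed over Cd74, H2-Aa, H2-Ab1 and H2-Eb1, took 0.0705% to 0.258% of the UMIs of those 8 CSD cells (median 0.129%), against a median of 0.783% (0.0651% to 2.48%) in the other 20 CSD pDCs. The 1 HC cell above the limit had 0.700%, close to the HC medians of 0.685% and 0.958%.

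None of these 9 cells had a UMI of Klk1 or Klk1b27, which were seen in 34 of the other 52. Dntt was seen in 5 of the 9 and in 21 of the 52. Klk1 belongs to the rule, which these cells met by the other markers. None of the 9 was among the top Scrublet scores, against 5 of the 52, and none held more than 2 UMIs of mature B cell genes. Across the pDCs of a library, Spearman's rho of Ly6d with class II share was 0.21 (21 cells), 0.15 (12) and -0.63 (28), as a description of cells that share a library and depth.

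At least 9 of 12 cell cycle genes were seen in 4 pDCs, a limit also set after the values were seen, while none had 7 or 8 and 2 had 6. They were 1 cell of HC replicate 1 and 3 of the CSD library, and the 3 CSD cells were among the 8 high in Ly6d, with 71, 68 and 65 Ly6d UMIs and 8, 6 and 19 class II UMIs. These 3 cells had 5809, 6586 and 7358 UMIs, against a median of 3862. The HC cell had 8 UMIs of Top2a, the topoisomerase of dividing cells, and 1 of Birc5.

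Without these 4 cells, 2 genes passed between CSD and HC, Mgp and Dcn, both lower. Ly6d was then 2806, 2565 and 4445 CPM in pDCs (log2 difference 0.71, adjusted p = 0.923, within a range of 0.0527 to 1 over the alternatives). In the comparison with mature B cells, H2-Ab1 still passed (log2 difference -1.18, adjusted p = 0.002, within a range of 4.23e-07 to 1 over the alternatives), while Ly6d (0.61), Hmgb2 (0.94), Tuba1b (1.41) and H2-Aa (-0.67) kept their sign and did not pass. Without the CSD pDC rich in neutrophil transcripts, 3 genes passed between CSD and HC, all lower, and Birc5, seen in fewer cells, was under the filter.

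**Figure D4:**
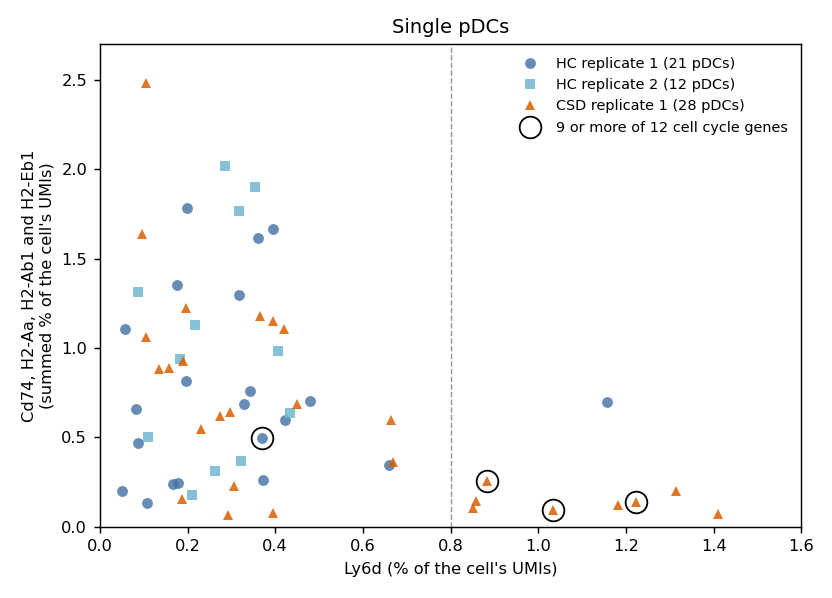
Each of the 61 pDCs by the percentage of its UMIs from Ly6d (x axis) and from Cd74, H2-Aa, H2-Ab1 and H2-Eb1 together (y axis), with shapes and colours for the library, a dashed line at 0.8% Ly6d and rings around cells with 9 or more of 12 cell cycle genes. The 8 CSD cells right of the line all lie at or below 0.258% class II, and 3 of the 4 ringed cells are among them.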

How the data were processed

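Meninges of 12 mice in 3 pools were profiled by 10x Chromium 3' sequencing. The authors counted UMIs per gene and barcode with Cell Ranger (version 2, mm10, per the submitters' processing notes) and deposited the counts unfiltered, with the library given by the number after each barcode. Digestion with collagenase preceded the sort. Here, cells were chosen by the rules given above. Neutrophils were cells with at least 5% of UMIs from S100a8, S100a9, Retnlg, Camp, Ngp, Ltf, Lcn2 and Mmp8. cDCs had at least 0.2% of UMIs from Cd209a, Clec10a, Xcr1, Clec9a, Zbtb46, Flt3, Wdfy4 and Naaa with 3 detected, and mature B cells at least 0.3% from Ms4a1, Cd79a, Cd79b, Ighd, Fcer2a, Fcmr and another B cell gene with 4 detected. That gene and a member of the pDC and trafficking lists are counted in their lists but not reported here. In both, pDC and microglial genes were held under 0.05%, and in B cells Dntt, Rag1, Igll1 and Vpreb1 too. No doublets were removed in the main analysis.

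UMIs were summed per library and population and tested in edgeR 4.0.16 (R 4.3.3; glmQLFit and glmQLFTest, TMM, two-sided, Benjamini-Hochberg over all genes tested), with genes kept if over 15% of the pDCs, or of either population, had a UMI. The library was a block where populations were compared, because both sums of a library come from the same pool of mice; correlations of their deviations from the group means were 0.05 to 0.08 for cDCs and 0.05 to 0.12 for mature B cells. DESeq2 1.42.0, other filters, rules and free RNA treatments were alternatives. Scrublet was run in scanpy 1.11.5. The scripts were tested on simulated data. Libraries of 8814690 to 10206236 UMIs gave 49114 to 114009 pDC UMIs, so a gene under 26.3 to 61.1 CPM (UMIs scaled to a total of 1000000) lies under 3 UMIs in a library. "At least" folds set the empty group at 3 UMIs, and intervals and floors cover counting error only.

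The pDC rule, the gene lists and the tests were chosen with earlier results of these data known. Genes named are those of the rule and the lists, with list members past the threshold and up to 4 others per list by level, the 10 with the greatest differences per direction against cDCs and mature B cells, and, for CSD, those that passed and up to 5 more per direction by p with CSD beyond both HC libraries. Of 342 list symbols, 6 were not matched (Ighd, Ighm, Igkc, Iglc3, Mx2 and Trac). Gene positions are from GENCODE on GRCm38 and promoters from RefSeq.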

Additional observations from a re-analysis of the deposited data

Results flagged for a closer look

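The CSD difference was not the same in pDCs and in mature B cells for 5 genes, by the interaction term of edgeR's quasi-likelihood test. On the log2 scale, the CSD difference in pDCs minus that in mature B cells was 1.92 for Hmgb2, 0.93 for Ly6d and 2.21 for Tuba1b, and it was -1.32 for H2-Ab1 and -0.81 for H2-Aa. Beside them, as measured, 3 cycling CSD pDCs were also high in Ly6d and low in class II RNA, class II RNA in empty droplets was lowest in the CSD library, and 1 CSD library bears the whole contrast. Their part in these differences was not tested beyond the alternatives given below.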

How the results depend on the processing

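Counts of genes called in the main analysis moved by over 1.5 times as follows. Between CSD and HC, where 5 were called, DESeq2 called 0 (8 at an unadjusted p under 0.05), a filter of at least 10 UMIs 0 (edgeR, 130 at an unadjusted p under 0.05), leaving out the top 5% of Scrublet scores 14 (5 higher, 9 lower), and leaving out genes changed in empty droplets 3. Leaving out the 4 cycling pDCs gave 2 and leaving out the neutrophil-rich pDC 3, and both of these alternatives were chosen after seeing the data. Against cDCs, where 424 were called, DESeq2 called 136 and the fit with no filter on the share of cells 237. Without 1 library the range was 231 to 352, lowest without HC replicate 1 (231) and 274 without HC replicate 2. Against mature B cells, where 467 were called, DESeq2 called 198, and without 1 library the range was 334 to 418. For the difference of the CSD effect, where 5 were called, DESeq2 called 0 (5 at an unadjusted p under 0.05), subtraction of the empty-droplet profile 0 (edgeR, 120 at an unadjusted p under 0.05), markers at 0.4% 1, DESeq2's size factors 8, cells of at least 1000 UMIs 8, no top Scrublet scores 11, no cycling pDCs 1 and no neutrophil-rich pDC 9. The share of pDCs exceeded the HC mean by 0.156 points with markers at 0.4%, 0.910 outside neutrophils and 0.171 without cycling pDCs, and by 0.208 to 0.311 without 1 HC library.

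Between CSD and HC, log2 differences reversed for Hbb-bs (-6.07 after subtraction) and for H2afx (-1.26) and Hmgb2 (-0.53) with markers at 0.4%, and none of the 3 had been called. Among the values of the 20 most different genes against cDCs, 262 kept their direction and call under an alternative and 18 lost the call. The 5 genes called between CSD and HC kept the call in 30 values and lost it in 21, and the 5 genes of the CSD difference from mature B cells in 32 and 23. Of the named CSD genes not called, 96 values stayed so, 9 passed and 3 reversed. The cause was not tested. As measured, 19 pDCs lay under 0.4% of markers, among them the 3 cycling CSD pDCs at 0.258% to 0.395%, while the cycling HC pDC held 0.419%. Without the library as a replicate block, 339 genes were called against cDCs (160 higher, 179 lower) and 425 against mature B cells (238 and 187). No paired analysis was possible for CSD against HC because the groups share fewer than 2 replicate numbers. Leaving out an HC library leaves that test with no residual degrees of freedom, so it gave no calls. With 12 to 28 pDCs per library, a gene under 3 UMIs in a library could not be compared.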
